A study of Mus musculus with 8 samples.

Results

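The LIN28, HMGA and IGF2BP genes are oncofetal genes: they code for RNA-binding and chromatin proteins that are abundant in embryonic cells, are reduced in most adult tissues and are found again in many tumours. The set described here was a list of 7 genes, namely Lin28b, its partner nuclease Dis3l2, Hmga1, Hmga2, Igf2bp1, Igf2bp2 and Igf2bp3. Of these, 6 were among the 17488 genes of the expression table, and all 6 were among the 16157 genes tested. Igf2bp1 is not analysed here.

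The values came from RNA sequencing of whole abdominal neuroblastomas, tumour and stromal cells together, in 8 homozygous TH-MYCN mice. In this model the MYCN oncogene is driven in the sympathoadrenal lineage by the tyrosine hydroxylase promoter, and every mouse of both groups carried it. The 4 panobinostat mice received 2 doses of 5 mg/kg of this inhibitor of histone deacetylases, 24 h apart, and the 4 vehicle mice received the solvent on the same schedule. Treatment began when tumours measured 200 to 300 mm3, at about 6 weeks of age, and tumours were taken 4 h after the second dose. Each library is 1 mouse, so p-values measure the spread between mice. The library numbers only name the mice and pair none of them.

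LIN28 proteins bind the precursors of the let-7 microRNAs and keep them from maturing. In the cytoplasmic form of this pathway the terminal uridylyltransferases TUT4 and TUT7 add a uridine tail to the bound precursor and the exonuclease DIS3L2 degrades the tailed RNA. Mature let-7 represses a group of oncofetal transcripts that includes Lin28b itself, Hmga2 and the Igf2bp genes, and in mouse models forced expression of LIN28B in the sympathoadrenal lineage gives rise to neuroblastoma. HMGA proteins bind AT-rich DNA in chromatin, and IGF2BP proteins bind messenger RNAs, among them Igf2, and stabilise them or direct their translation.

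The mature let-7 and miR-98 sequences are shown first because their shared stretch, the seed, is what the search of the members' transcripts used. RefSeq (GRCm38.p6) held 9 mature names of this family, and the capitals mark the seed (bases 2 to 8), which was GAGGUAG in all 9. Of the 9, 4 are printed.
mmu-let-7a-5p: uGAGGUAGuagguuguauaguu
mmu-let-7b-5p: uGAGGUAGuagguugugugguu
mmu-let-7g-5p: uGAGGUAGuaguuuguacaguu
mmu-miR-98-5p: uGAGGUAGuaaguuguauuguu
The libraries did not measure mature microRNAs, so no let-7 level is given.

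LIN28 is known to contact a GGAG motif in the terminal loop of let-7 precursors. The motif stood between the arms of 9 of the 12 let-7 and miR-98 hairpins and was not found in Mirlet7b, Mirlet7c-2 and Mir98. One hairpin of each kind is shown, Mirlet7g (chr9:106178840-106178927, plus strand) with the motif in capitals and Mirlet7b (chr15:85707319-85707403, plus strand) without it.
Mirlet7g: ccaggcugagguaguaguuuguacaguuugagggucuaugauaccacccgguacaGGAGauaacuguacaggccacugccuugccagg
Mirlet7b: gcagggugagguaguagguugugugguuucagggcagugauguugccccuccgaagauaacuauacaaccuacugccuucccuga
These letters are common: 44.5% of all 1005 mouse hairpins in the same table held GGAG somewhere.

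The complement of the seed, CTACCTC, was searched in the longest annotated 3′ untranslated region (UTR) of each gene on its own strand. Lin28b and Hmga2 held 4 matches each, and only 11 of the 14200 tested genes with a 3′ UTR (0.08%) held as many. Hmga1, Igf2bp2 and Igf2bp3 held 1 each, as 10.52% of genes held at least 1, and Dis3l2 held none. The match nearest the stop codon is printed for each gene with GRCm38 coordinates, all within a 3′ UTR, with the match in capitals and with a capital A after it where the base opposite the first let-7 base is an A.
Lin28b (chr10:45381022-45381044, minus strand): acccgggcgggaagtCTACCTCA
Hmga2 (chr10:120364224-120364246, minus strand): gccgacattcaatttCTACCTCA
Igf2bp2 (chr16:22059473-22059495, minus strand): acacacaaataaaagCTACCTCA
Igf2bp3 (chr6:49086787-49086809, minus strand): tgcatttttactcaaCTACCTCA
Hmga1 (chr17:27563277-27563299, plus strand): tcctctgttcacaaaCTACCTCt
A match is a description of the sequence and was not tested as a site in these tumours.

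Levels are the authors' log2 CPM, the reads of a gene per 1000000 reads, from which whole read counts were recovered. Depth was 18664066 to 22235545 reads for panobinostat libraries, against 22055658 to 23830026 for vehicle libraries. A level of 1 CPM stood for 19.3 to 22.32 reads in a panobinostat library and 20.4 to 22.64 reads in a vehicle library. Differences are panobinostat minus vehicle on the log2 scale, with the standard error (SE) and the adjusted p of limma's moderated test (Benjamini-Hochberg over all 16157 genes), and a gene is said to have risen or fallen where that p was under 0.05.

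The tumours differed between groups in more than these genes, and the libraries did not all hold the same tissue. Summed CPM of 10 fibroblast and mural markers was 9244 to 16585 with panobinostat and 1600.1 to 5125 with vehicle, and all 10 rose. Of 10 macrophage markers 9 rose (3118 to 5564 CPM with panobinostat, 648 to 1240.3 with vehicle), among them Lyz2 and C1qb, and all 6 adipocyte markers rose (1089 to 1661 with panobinostat, 25.2 to 675 with vehicle). Of 12 noradrenergic neuroblast markers 8 fell (1175 to 1350.1 with panobinostat, 2786 to 3882 with vehicle), Tfap2b by 2.76, while the difference in Th was 0.18 (adjusted p = 0.626). All 12 were detected in every library. Markers of neighbouring organs were uneven within the panobinostat group: the 8 adrenal cortex markers summed to 39.4 to 2756 CPM with panobinostat, against 9.02 to 11.2 with vehicle, where Cyp11b2 was at 0 in all 4 libraries. The 7 liver markers summed to 89.2 to 8873 CPM with panobinostat and 4.54 to 57.1 with vehicle. Panobinostat libraries 3 and 4 held the most of both, and the members' values without them are given beside each result they move. Of 7 endothelial markers 2 rose, of 6 Schwann cell markers 5 rose, and of the few T and B cell and kidney markers tested 1 each rose. Without panobinostat libraries 3 and 4, the markers that rose numbered 9 of 10 for fibroblasts, 10 of 10 for macrophages, 4 of 6 for adipocytes and 2 of 6 for Schwann cells, and both endothelial calls were lost. The tested adrenal cortex markers then still had a median log2 change of 6.18 (7.95 with all libraries). For the tested liver markers it was 3.16 (5.61 with all libraries). Values without these 2 libraries are therefore not free of markers of neighbouring organs. None of the 3 erythroid markers passed the test (281 to 5780.4 CPM with panobinostat, 1399 to 2029.8 with vehicle). Without panobinostat library 1 all 3 fell, with a median log2 change of -1.53. No pancreas marker passed the filter on low values, which asks for 4 libraries, but the 5 markers summed to 1.93 to 2056 CPM with panobinostat and 0.83 to 1.46 with vehicle, and the 3 kidney markers to 3.16 to 351 CPM with panobinostat and 0.35 to 2.74 with vehicle. In whole tumours, fewer cells of a type and less RNA per cell cannot be told apart, and the part of these markers in the members' differences was not tested.

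Of the 6 members, 3 fell (Lin28b, Dis3l2 and Hmga1), 2 rose (Igf2bp2 and Hmga2) and Igf2bp3 did not pass the test. These counts stand beside a broad response, in which 32.4% of all tested genes fell and 31.2% rose, 63.7% in all. Panobinostat and vehicle libraries did not overlap for the 5 called members, as for 59.7% of all tested genes (31.2% lower and 28.5% higher). The HMGA pair went in opposite directions, whereas Lin28b and Dis3l2 both fell.

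**Figure D1:**
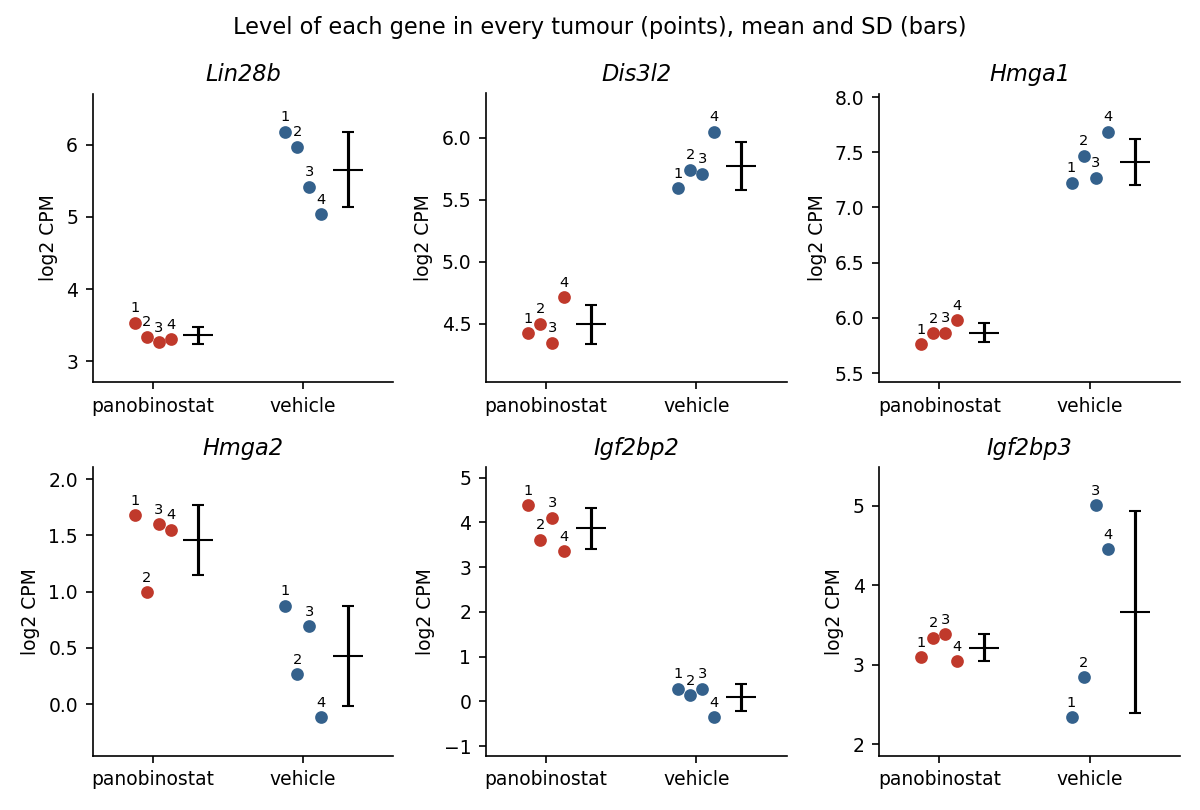
Level of each member in log2 CPM in the 4 panobinostat tumours (red, left) and the 4 vehicle tumours (blue, right), with mice numbered and bars for mean and SD; each panel has its own axis. The groups do not overlap except for Igf2bp3, whose vehicle tumours 1 and 2 lie below and tumours 3 and 4 above the panobinostat tumours.

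Lin28b (ENSMUSG00000063804, chr10:45376620-45486395, minus strand, GRCm38) is the LIN28 paralogue expressed in these tumours. It had 258, 195, 200 and 193 reads in panobinostat libraries 1 to 4, or 3.53, 3.34, 3.26 and 3.30 log2 CPM, against 1642, 1279, 965 and 694 reads in vehicle libraries 1 to 4, or 6.18, 5.97, 5.42 and 5.04 log2 CPM. The panobinostat tumours were close to one another and all lay far below the vehicle tumours, which spread more widely, with libraries 1 and 2 above 3 and 4. Mean CPM was 10.3 ± 0.891 with panobinostat and 52.7 ± 18.1 with vehicle (SD, n = 4 each), so that vehicle tumours held 5.13 times as much. The log2 change was -2.29 (SE 0.24, 95% interval -2.83 to -1.76, limma adjusted p = 4.16e-05), and 0.86% of tested genes had a lower one. Without panobinostat libraries 3 and 4 it was -2.21 (limma adjusted p = 0.00156).

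Lin28a, the other LIN28 gene, had few reads in both groups: 10, 13, 15 and 14 reads with panobinostat and 2, 2, 4 and 5 with vehicle. It reached 1 CPM in no library and was not tested. Every panobinostat library held more Lin28a reads than any vehicle library, at levels far under those of Lin28b.

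Dis3l2 (ENSMUSG00000053333, chr1:86703808-87050095, plus strand), the exonuclease for tailed let-7 precursors, had 4.42, 4.50, 4.35 and 4.71 log2 CPM (425 to 514 reads) with panobinostat and 5.59, 5.74, 5.71 and 6.05 log2 CPM (1092 to 1402 reads) with vehicle. The 2 groups were separated by a gap wider than the spread within either. Dis3l2 fell by 1.28 on the log2 scale (SE 0.13, limma adjusted p = 4.13e-05), and the 2 tailing enzymes went in opposite directions. Tut4 fell, with a log2 change of -0.82 (SE 0.17, limma adjusted p = 0.00281). Tut7 rose by 0.37 (SE 0.11, limma adjusted p = 0.0165), a call lost when libraries are centred on their medians (0.26, adjusted p = 0.0637) or panobinostat libraries 3 and 4 are left out (0.43, adjusted p = 0.0657).

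The wider list of genes for let-7 maturation, tailing and decay leaned the same way as Dis3l2. Of its 24 tested genes 17 fell and 5 rose, beside 32.4% and 31.2% of all tested genes. The median log2 change was -0.91, beside -0.02 over all tested genes. The genes that fell covered successive steps of microRNA production: Drosha, the nuclear nuclease (-1.32, limma adjusted p = 1.52e-05), its partner Dgcr8, the exporter Xpo5, the cytoplasmic nuclease Dicer1 (-0.99, SE 0.10, limma adjusted p = 3.82e-05) and its partner Tarbp2 (-1.55, limma adjusted p = 1.12e-05). Hnrnpa1, an RNA-binding protein known to hold back let-7a processing, fell as well (-1.32, limma adjusted p = 1.53e-05). The Argonaute genes, whose proteins carry mature microRNAs, divided: Ago1 and Ago2 fell, Ago3 rose by 1.64 (SE 0.24, limma adjusted p = 0.000316) and Ago4 rose by 1.81 (SE 0.19, limma adjusted p = 4.98e-05). Trim25, a cofactor of precursor tailing, rose by 1.40 (SE 0.32, limma adjusted p = 0.00409), and Prkra rose by 0.38 (limma adjusted p = 0.018), a call lost when libraries are centred on their medians (0.26, adjusted p = 0.0695), without panobinostat library 3 (adjusted p = 0.0652) and without panobinostat libraries 3 and 4 (adjusted p = 0.126). Dgcr8, Xpo5, Prkra, Trim25 and the Argonaute genes were named after their values were seen. Trim71, a let-7 target and RNA-binding protein of early development, varied too widely to call: 30, 67, 10 and 11 reads with panobinostat and 9, 85, 43 and 152 with vehicle (-1.03, SE 0.91, limma adjusted p = 0.345); without vehicle library 1 it was -1.83 (adjusted p = 0.0492).

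Genes that host let-7 units inside their introns were measured in 2 cases. Huwe1, which hosts Mirlet7f-2 and Mir98, fell by 0.88 on the log2 scale (SE 0.10, limma adjusted p = 5.74e-05). Mir99ahg, the long noncoding host of Mirlet7c-1, had 63 to 84 reads in panobinostat tumours, against 41 to 143 reads in vehicle tumours. The difference was -0.29 (SE 0.37, limma adjusted p = 0.516). Without vehicle library 4 it was -0.69 (limma adjusted p = 0.0101). The gene was also called lower with library weights (-0.68, limma adjusted p = 0.0342) and under quantile normalization (-0.94, limma adjusted p = 0.025). A host transcript is not a measure of the mature microRNA.

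Reported let-7 targets outside the member list did not share a direction. Of 34 tested genes 10 rose, near the 31.2% of all tested genes, and 16 fell, beside 32.4% of all tested genes. Their median log2 change was -0.32. The D-type cyclins, which start the cell cycle, went opposite ways: Ccnd2 rose by 2.85 (SE 0.17, limma adjusted p = 4.95e-06), while Ccnd1 fell by 2.36 (SE 0.16, limma adjusted p = 6.39e-06). Rrm2, a subunit of ribonucleotide reductase, fell by 2.12 (SE 0.12, limma adjusted p = 4.74e-06), beside 6 of 6 proliferation markers that fell with a median of -1.24. Mycn, both a listed let-7 target and the driver of the model, had 6.24, 6.48, 6.89 and 6.74 log2 CPM with panobinostat and 7.06, 7.48, 7.34 and 7.92 with vehicle, and fell by 0.86 on the log2 scale (SE 0.20, limma adjusted p = 0.00408). Whether reads of the human MYCN transgene enter this count was not stated by the submitters.

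Among tested genes with a 3′ UTR, those with up to 2 seed matches differed little in median change. The median log2 change was 0.03 for the 12706 genes with no match, 0.07 for 1313 genes with 1 and 0.05 for 154 genes with 2. For the 27 genes with 3 or more, Lin28b and Hmga2 among them, it was -0.16. Of these 27, 12 fell (44.4%) and 10 rose (37.0%), beside 32.4% and 33.6% of all tested genes with a 3′ UTR. These shares were not compared by a test. The 3′ UTRs of these groups differed in length, with medians of 1077, 2215, 3575 and 4457 bases. Lin28b and Hmga2, with equal numbers of matches, lay on opposite sides of 0.

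**Figure D2:**
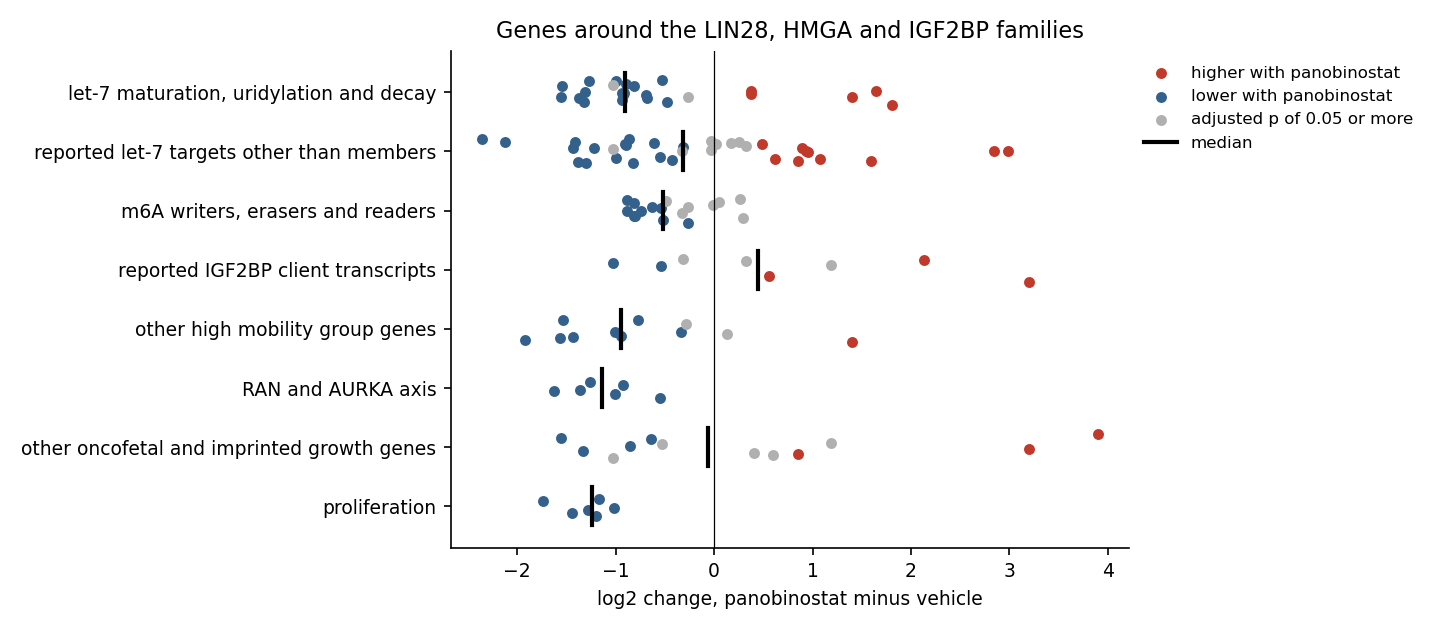
Log2 change (panobinostat minus vehicle) of every tested gene in the lists around the 3 families; each point is 1 gene, red where higher and blue where lower at an adjusted p under 0.05, grey otherwise, and the black bar is the list median. Points spread over both sides of 0 for let-7 targets, IGF2BP clients and oncofetal growth genes, whereas all 6 genes of the RAN and AURKA list and all 6 proliferation markers lie below 0.

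LIN28B is reported to act through the small GTPase RAN and the mitotic kinase AURKA in human neuroblastoma cells. All 6 genes of that list fell, beside 32.4% of all tested genes, with a median log2 change of -1.13. All 6 proliferation markers fell too (median -1.24), and whether these falls are related was not tested. Aurka fell by 1.63 (SE 0.15, limma adjusted p = 2.45e-05), Rcc1, the exchange factor of RAN, by 1.36 (SE 0.12, limma adjusted p = 2.23e-05) and Tpx2, the activator of AURKA, by 1.26 (SE 0.11, limma adjusted p = 1.64e-05). The call of Rangap1, which was named after its values were seen, did not hold under several alternatives, among them leaving out panobinostat library 1 (-0.45, adjusted p = 0.0975) or vehicle library 4 (-0.40, adjusted p = 0.0889).

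Hmga1 (ENSMUSG00000046711, chr17:27556497-27563674, plus strand), an architectural chromatin protein that is abundant in dividing and embryonic cells, was the most highly expressed member. It had 5.76, 5.86, 5.86 and 5.98 log2 CPM (1122 to 1236 reads) with panobinostat and 7.22, 7.47, 7.27 and 7.69 log2 CPM (3383 to 4359 reads) with vehicle. Both groups were tight, and the lowest vehicle tumour lay well above the highest panobinostat tumour. Hmga1 fell by 1.54 on the log2 scale (SE 0.12, 95% interval -1.81 to -1.28, limma adjusted p = 9.67e-06), and vehicle tumours held 2.94 times as many CPM.

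The Hmga1 reads are shared with a near-identical copy. Hmga1b (chr11:120762794-120764419, plus strand) shared 89.0% of its 1577 windows of 50 bases with Hmga1 transcripts, and in every library its read count was 0.865 to 0.920 times that of Hmga1. How the authors' counting divided such reads is not given in the sources used here, so the value of either gene alone is uncertain. Of the windows of Hmga1, 55.0% were found in Hmga1b. Summed over the pair, the level was 110.5 ± 6.12 CPM with panobinostat and 325 ± 46.5 CPM with vehicle (SD, n = 4 each). If shared reads were counted for both genes, this sum holds them more than once and is too high. Hmga1 also shares 102 exonic bases (4.8% of its exons) with AI413582 on the opposite strand, a gene whose log2 change was 1.29.

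Hmga2 (ENSMUSG00000056758, chr10:120361275-120476469, minus strand), the paralogue best known as a let-7 target, was near the lower limit of detection. It had 1.68, 1.00, 1.60 and 1.55 log2 CPM (71, 38, 63 and 57 reads) with panobinostat and 0.87, 0.26, 0.69 and -0.12 log2 CPM (41, 24, 36 and 19 reads) with vehicle. The groups did not overlap in log2 CPM, but the gap between panobinostat library 2 and vehicle library 1 was small. The log2 change was 1.03 (SE 0.30, 95% interval 0.36 to 1.69, limma adjusted p = 0.0128). It passed the filter on low values in 4 panobinostat and 3 vehicle libraries. The call was lost under quantile normalization (0.38, adjusted p = 0.191) and without panobinostat libraries 3 and 4 (0.91, adjusted p = 0.12).

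Of 11 other high mobility group genes tested, 8 fell, as Hmga1 did, beside 32.4% of all tested genes. Hmg20b rose and the other 2 did not pass the test, and the median log2 change of the 11 was -0.94. Hmgb3 fell by 1.92 (SE 0.11, limma adjusted p = 4.74e-06), Hmgb2 by 1.53 (SE 0.10, limma adjusted p = 5.47e-06) and the nucleosome-binding gene Hmgn2 by 1.57 (SE 0.11, limma adjusted p = 8.7e-06). Hmg20b, a subunit of a complex that holds histone deacetylases and a histone demethylase, rose by 1.40 (SE 0.11, limma adjusted p = 1.05e-05) and was singled out after its value was seen.

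Igf2bp2 (ENSMUSG00000033581, chr16:22059009-22163299, minus strand), a messenger RNA-binding protein known as a target of HMGA2 in the mouse embryo, had the largest change of the 6 members. It had 465, 236, 358 and 201 reads in panobinostat libraries 1 to 4, or 4.38, 3.62, 4.10 and 3.36 log2 CPM, against 27, 22, 27 and 16 reads in vehicle libraries 1 to 4, or 0.28, 0.14, 0.29 and -0.36 log2 CPM. Every panobinostat tumour lay far above every vehicle tumour, and the panobinostat tumours differed among themselves, with libraries 1 and 3 above 2 and 4. Mean CPM was 15.1 ± 4.79 with panobinostat and 1.06 ± 0.208 with vehicle (SD, n = 4 each), a 14.3-fold difference. The log2 change was 3.78 (SE 0.28, 95% interval 3.15 to 4.40, limma adjusted p = 9.26e-06), and 0.98% of tested genes had a higher one. Without panobinostat libraries 3 and 4 it was 3.91 (limma adjusted p = 0.000532). Vehicle libraries held few reads of the gene, 3 of the 4 being at or over 1 CPM.

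Igf2bp3 (ENSMUSG00000029814, chr6:49085223-49214957, minus strand), a fetal paralogue found in many tumours, split the vehicle group. It had 3.09, 3.34, 3.38 and 3.05 log2 CPM (190, 195, 218 and 162 reads) with panobinostat and 2.34, 2.84, 5.01 and 4.46 log2 CPM (114, 146, 726 and 464 reads) with vehicle. The panobinostat tumours lay within a narrow band between vehicle libraries 1 and 2, which were low, and 3 and 4, which were high. The difference was -0.44 (SE 0.53, 95% interval -1.65 to 0.76, limma adjusted p = 0.486), and 96.5% of tested genes had a smaller SD among the vehicle tumours than the 1.27 of Igf2bp3. The interval leaves room for a fall of 1.65 or a rise of 0.76. The value turned on single vehicle libraries. Without library 3 the difference was 0.0045 (limma adjusted p = 0.993), and without library 1 it was -0.89 (limma adjusted p = 0.109). Of the exons of Igf2bp3, 18.7% (1529 bases) overlap those of Malsu1 on the opposite strand, and the library kit does not mark strand, so reads there cannot be assigned.

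**Figure D3:**
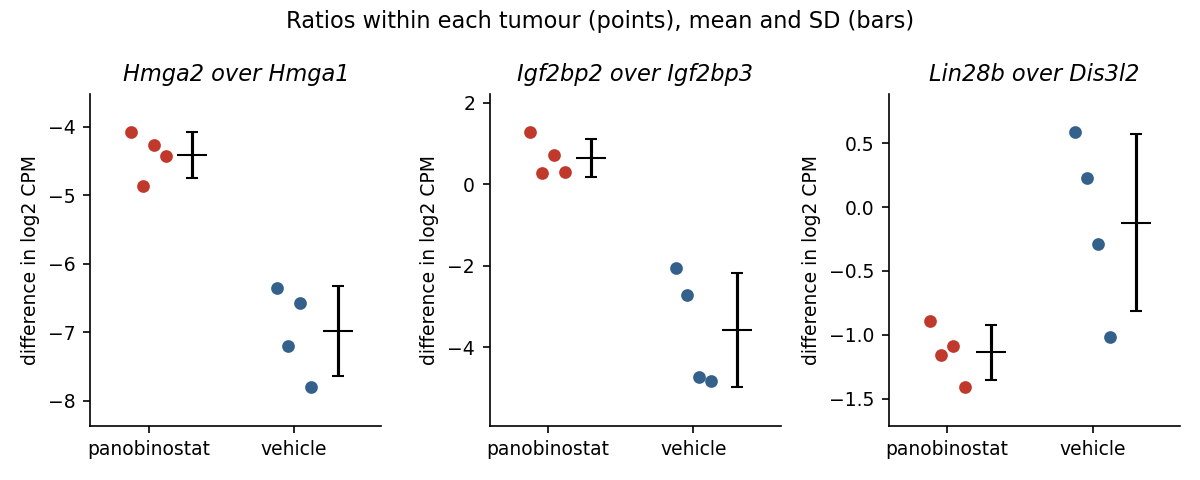
Difference in log2 CPM between 2 members within each tumour, panobinostat (red, left) and vehicle (blue, right), with bars for mean and SD of 4 tumours. For Hmga2 over Hmga1 and Igf2bp2 over Igf2bp3 all panobinostat tumours lie above all vehicle tumours; for Lin28b over Dis3l2 vehicle tumour 4 lies among the panobinostat tumours.

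Ratios within a tumour do not depend on a library's scaling factor, and 3 were compared between groups with a two-sided exact permutation test over 70 assignments, adjusted over the 3. The Hmga2 over Hmga1 ratio (log2) was -4.41 ± 0.33 with panobinostat and -6.98 ± 0.66 with vehicle (SD, n = 4 each), a difference of 2.57 (exact permutation p = 0.0286, the smallest possible, adjusted p = 0.0429). Because Hmga2 was higher and Hmga1 lower without overlap between groups, this p was fixed by those results and adds nothing to them. The Igf2bp2 over Igf2bp3 ratio was 0.65 ± 0.47 with panobinostat and -3.57 ± 1.40 with vehicle, a difference of 4.22 (exact permutation p = 0.0286, adjusted p = 0.0429). Reads of Igf2bp2 thus outnumbered those of Igf2bp3 in every panobinostat tumour, and the reverse held in every vehicle tumour. The gap in Igf2bp2 between the groups was wider than the full range of Igf2bp3 over all libraries. The p of this ratio was therefore fixed by Igf2bp2 as well and adds nothing to its result. The Lin28b over Dis3l2 ratio was -1.14 ± 0.22 with panobinostat and -0.12 ± 0.70 with vehicle, and the difference of -1.01 missed the threshold (exact permutation p = 0.0571, adjusted p = 0.0571); without vehicle library 4 it was -1.31 (adjusted p = 0.0286).

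Read counts per gene depend on length, so members were ranked by CPM per kb of merged exons. With panobinostat the order was Hmga1 (27.5), Dis3l2 (2.54), Igf2bp2 (2.04), Igf2bp3 (1.14), Lin28b (1.13) and Hmga2 (0.409). With vehicle it was Hmga1 (80.8), Dis3l2 (6.19), Lin28b (5.81), Igf2bp3 (2.03), Hmga2 (0.202) and Igf2bp2 (0.143). Hmga1 stood alone at the top in both groups. Among neighbours with panobinostat, Dis3l2 and Igf2bp2 overlapped in range, as did Igf2bp3 and Lin28b, while Igf2bp2 lay above Igf2bp3 and Lin28b above Hmga2 without overlap. With vehicle, Dis3l2 overlapped Lin28b, Lin28b overlapped Igf2bp3, and Hmga2 overlapped Igf2bp2. Igf2bp2 thus stood above Igf2bp3, Lin28b and Hmga2 with panobinostat and last with vehicle.

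**Figure D4:**
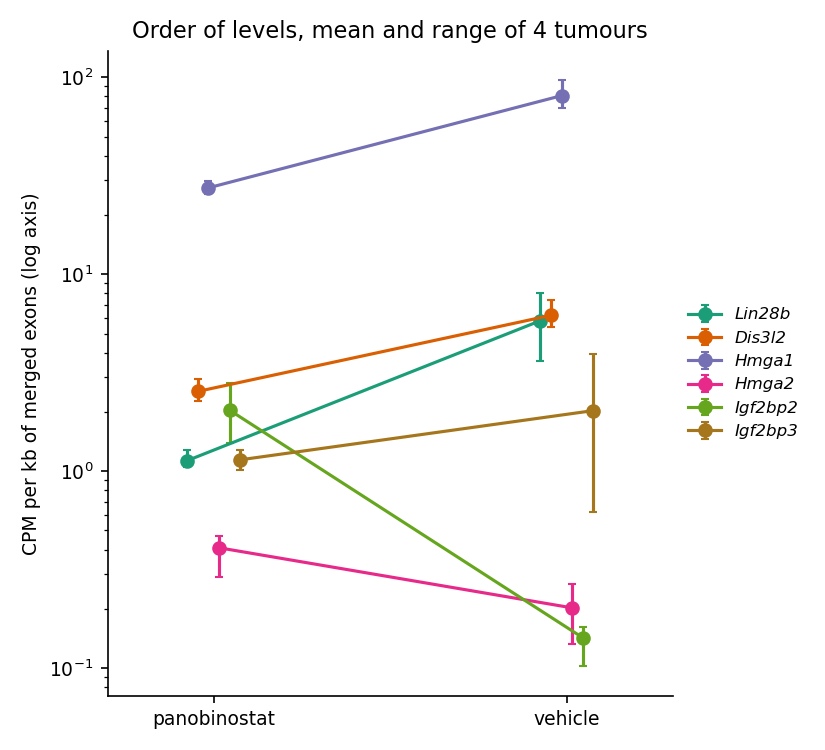
Mean level of the 6 members in CPM per kb of merged exons on a log axis, panobinostat left and vehicle right; bars give the lowest and highest of 4 tumours. The line of Igf2bp2 crosses those of Lin28b, Igf2bp3 and Hmga2.

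Transcripts reported to be bound by IGF2BP proteins were mixed. Of 8 tested, 3 rose and 2 fell, near the shares of all tested genes (31.2% rose and 32.4% fell). Their median log2 change was 0.44. Igf2, the fetal growth factor that gave the family its name, had 6.23, 5.39, 5.89 and 5.61 log2 CPM with panobinostat and 3.75, 2.93, 2.57 and 1.10 with vehicle. Every panobinostat tumour was above every vehicle tumour, and Igf2 rose by 3.19 (SE 0.48, limma adjusted p = 0.000367), by 3.22 without panobinostat libraries 3 and 4. An annotated readthrough gene, Gm49394, covers 62.8% of the Igf2 exons on the same strand, so part of these reads could belong to either. H19, the imprinted noncoding neighbour of Igf2, had 9.66, 6.89, 8.68 and 7.99 log2 CPM with panobinostat and 6.02, 7.43, 8.15 and 6.89 with vehicle, an overlap between groups, and its difference of 1.18 (SE 0.60) missed the threshold (limma adjusted p = 0.11; without panobinostat library 2 it was 1.66, adjusted p = 0.0253). Cd44, a hyaluronan receptor, rose by 2.13 (SE 0.17, limma adjusted p = 1.37e-05), and Btrc, which codes for a ubiquitin ligase subunit, fell by 0.54 (SE 0.13, limma adjusted p = 0.00471). The rises in Igf2 and Cd44 stand beside those of the fibroblast and macrophage markers, and whether these are related was not tested.

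Plag1 moved furthest in the list of other oncofetal and imprinted growth genes, where 3 of 12 rose and 4 fell (median -0.06). These counts were near the shares of all tested genes, of which 31.2% rose and 32.4% fell. PLAG1 is a zinc finger factor of fetal tissue and an activator of IGF2. It had 3.08, 2.57, 2.68 and 2.24 log2 CPM (92 to 188 reads) with panobinostat and -0.98, -0.49, -0.97 and -2.60 log2 CPM (3 to 14 reads) with vehicle. Its log2 change was 3.90 (SE 0.45, limma adjusted p = 7.34e-05), with few reads behind the vehicle values. Plag1 reached 1 CPM in every panobinostat library and in no vehicle library. It thus entered the test only through the group where it was high, which limits what the p-value can show. In the same list Dlk1, a fetal membrane protein of neuroendocrine cells, fell by 1.55 (SE 0.14, limma adjusted p = 1.88e-05), and Mest fell by 0.86 (SE 0.12, limma adjusted p = 0.00019).

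IGF2BP proteins are counted among the readers of N6-methyladenosine (m6A), a mark on messenger RNA. Of 17 tested genes that write, erase or read m6A, 10 fell, beside 32.4% of all tested genes. The other 7 did not pass the test, and the median log2 change of the 17 was -0.52. Wtap and Mettl14, 2 subunits of the writer, fell by 0.80 (SE 0.08, limma adjusted p = 3.49e-05) and 0.74 (SE 0.10, limma adjusted p = 0.00017). Hnrnpa2b1, a nuclear reader, fell by 0.89 (SE 0.12, limma adjusted p = 0.000208). Scaling bears on this list: under quantile normalization 9 fell and 2 rose.

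The RefSeq promoter windows of the members (GRCm38.p6, 250 bases before to 50 after the start) were matched for the 6 members in the table and searched on both strands for 4 motifs. These were CACGTG (the E-box bound by MYC and MYCN), CCAAT (a box of many promoters), GGGCGG (the box bound by SP1) and TATAAA (the usual TATA box). CACGTG stood in the windows of Lin28b (1 copy) and Igf2bp3 (2 copies) and in none of the others, beside 7.2% of all 32851 windows. CCAAT stood in those same 2 members (37.4% of all windows), GGGCGG in the windows of Dis3l2, Hmga1, Hmga2 and Igf2bp2 (35.7% of all windows) and TATAAA in none (13.6% of all windows). No 2 matches overlapped in the windows printed. The windows of Lin28b and Igf2bp2, the members with the lowest and the highest change, are printed with matches in capitals. They mark the E-box and a CCAAT box on the opposite strand in Lin28b, and boxes for SP1 on the opposite strand in Igf2bp2.
Lin28b (chr10:45470152-45470451, minus strand): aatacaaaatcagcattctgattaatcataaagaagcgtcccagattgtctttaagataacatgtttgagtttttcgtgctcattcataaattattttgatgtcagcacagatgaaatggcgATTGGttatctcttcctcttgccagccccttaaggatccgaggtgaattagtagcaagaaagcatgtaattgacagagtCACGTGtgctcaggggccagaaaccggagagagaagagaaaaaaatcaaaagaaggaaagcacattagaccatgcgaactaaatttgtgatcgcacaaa
Igf2bp2 (chr16:22163250-22163549, minus strand): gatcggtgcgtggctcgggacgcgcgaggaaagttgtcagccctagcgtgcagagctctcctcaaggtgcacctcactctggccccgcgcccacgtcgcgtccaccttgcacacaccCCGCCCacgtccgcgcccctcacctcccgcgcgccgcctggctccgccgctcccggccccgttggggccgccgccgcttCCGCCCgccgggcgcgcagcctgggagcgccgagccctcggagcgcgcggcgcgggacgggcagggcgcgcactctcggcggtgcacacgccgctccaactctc
The windows differed in CpG content. That of Igf2bp2 held 47 CpG, more than 98.6% of all windows, and that of Lin28b held 8, beside a median of 7 over all windows. The Lin28b window lies at a RefSeq start inside the gene as annotated by GENCODE.

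Genes whose pattern was most like that of each member were named by the root mean square difference from it over the 8 libraries, after each gene was centred on its own vehicle mean, among 15941 named genes. For Lin28b these were Shisal2a (0.18) and Nexmif (0.19), and for Dis3l2 they were Ccar2 (0.054) and Ssrp1 (0.060). Hmga1 was matched most closely by its copy Hmga1b (0.029) and then by Mcm3 (0.048). For Hmga2 they were AI838599 (0.14) and 1700007J10Rik (0.19), for Igf2bp2 Tle2 (0.26) and Cd300ld (0.29), and for Igf2bp3 Prkar1b (0.21) and Cntnap2 (0.22). Differences were smallest for Dis3l2 and Hmga1, whose SD among the vehicle tumours was the smallest of the 6 members.

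**Figure D5:**
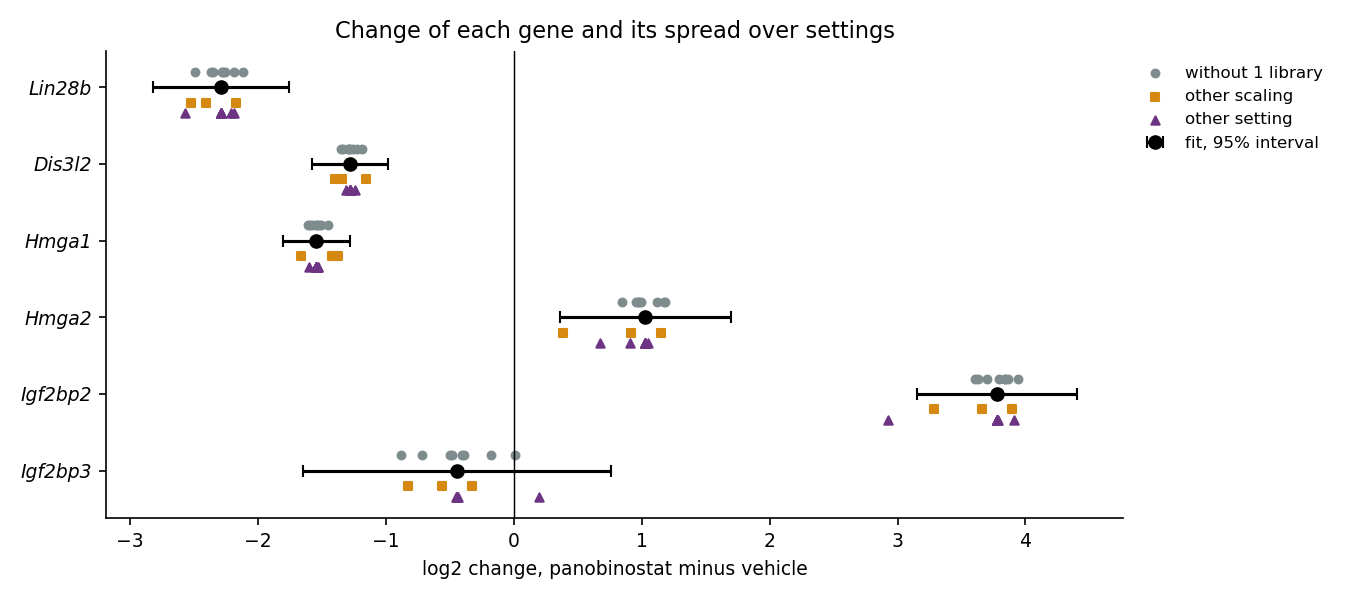
Log2 change (panobinostat minus vehicle) of each member with its 95% interval (black), and the same value without 1 library (grey circles), under another scaling (orange squares) and under the other settings (purple triangles). Lin28b, Dis3l2 and Hmga1 stay below 0 and Igf2bp2 and Hmga2 above 0 throughout, with Hmga2 at 0.38 under quantile normalization, while Igf2bp3 reaches both sides.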

How the data were processed

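RNA was extracted from whole tumours and sequenced from Illumina TruSeq V2 libraries, per the labels' protocols. The submitters' processing notes name the build mm10 and the tools HTSeq, limma, TopHat2 and CASAVA 1.8.2. How strand and reads with several matches were treated is not given in the sources used here. The authors deposited log2 CPM for 17488 Ensembl genes, of which 17228 had a GENCODE M21 symbol. The values have the form log2 of (reads + 0.5) per 1000000 reads of effective library size, and whole reads were recovered for 100% of them (within 0.001 read).

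The deposited log2 values were tested with limma 3.58.1 (R 4.3.3; lmFit, eBayes with a variance trend), over 16157 genes that reached 1 CPM in 4 or more libraries; 1331 genes were not tested. The test was checked on simulated data in which few genes changed and both groups had the same dispersion. In the real data 63.7% of genes were called, and the median SD of a gene was 0.16 with panobinostat and 0.30 with vehicle. The check does not cover so broad a response or unequal spread. Fold changes of genes with few reads are understated on this scale. Each effective library size was 1.019 ± 0.013 times the read total with panobinostat and 0.939 ± 0.041 times with vehicle (SD, n = 4 each), and 6 to 39 genes were at 0 with panobinostat and 132 to 213 with vehicle. Intervals cover the spread between mice. Of 6 planned ratios, the 3 with Igf2bp1 were not computed. The members and gene lists were chosen with earlier results of these data known. Genes named were the members, Mycn, Tut4, Tut7, Dicer1, Igf2, H19, Lin28a, Trim71, the 3 genes of each pathway list with the smallest adjusted p, the 2 cell type markers with the most reads, and the 2 nearest genes of each member; others were named after their values were seen. Alternatives changed the filter, scaling, variance model, pseudocount, threshold and libraries. Sequences are from RefSeq (GRCm38.p6) and GENCODE M21 (GRCm38).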

Additional observations from a re-analysis of the deposited data

How the results depend on the processing

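Over 21 alternatives each, Lin28b (-2.58 to -2.12), Dis3l2 (-1.40 to -1.16), Hmga1 (-1.66 to -1.37) and Igf2bp2 (2.93 to 3.95) kept direction and call. Over 20 alternatives Hmga2 kept its direction (0.38 to 1.18) and lost its call in 4: quantile normalization (0.38), an adjusted p under 0.01, a test against a 1.5-fold change (adjusted p = 0.207) and leaving out panobinostat libraries 3 and 4 (0.91). The number of members that rose was then 1, as it was with a filter of 5 CPM, which Hmga2 does not pass. Igf2bp3 was above 0 with library weights (0.20, adjusted p = 0.637) and without vehicle library 3 (0.0045). The cause was not tested.

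Against a 1.5-fold change 2186 genes fell and 2802 rose, in place of 5241 and 5048. Without 1 library, 4708 to 5361 genes fell, 4467 to 5106 rose, and of the members 3 fell and 2 rose each time. The same removals gave -2.50 to -2.12 for Lin28b, -1.35 to -1.19 for Dis3l2, -1.61 to -1.45 for Hmga1, 0.85 to 1.18 for Hmga2, 3.60 to 3.95 for Igf2bp2 and -0.89 to 0.0045 for Igf2bp3. Ratio differences were 2.30 to 2.78 (Hmga2 over Hmga1), 3.81 to 4.73 (Igf2bp2 over Igf2bp3) and -1.31 to -0.78 (Lin28b over Dis3l2). Without panobinostat libraries 3 and 4 the first 2 were 2.51 and 4.36 (exact permutation, adjusted p = 0.1 each), where the smallest possible p is 0.0667.

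The median change of all genes was -0.02, -0.14 when libraries were centred on medians or quantile normalized, and 0.10 when scaled to read totals. List counts that moved most were those against a 1.5-fold change, given here with those of the main test in brackets. For let-7 maturation 2 were higher and 11 lower (5 and 17), and for let-7 targets 3 and 8 (10 and 16). The m6A genes had 1 lower (10) and other oncofetal genes 2 lower (4). Both lower IGF2BP clients, Btrc and Mapk4, lost their call. Other settings moved several of these counts by less. Let-7 maturation genes that rose numbered 3 without panobinostat libraries 3 and 4, with median centring or at an adjusted p under 0.01. The lower IGF2BP clients numbered 1 without those libraries or at an adjusted p under 0.01. No paired analysis was possible because the library numbers do not link mice of the 2 groups. Hmga2, Lin28a and, with vehicle, Igf2bp2 and Plag1 are limited by depth.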
